A study of Mus musculus with 24 samples.

Results

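The IFIT, MX and OAS antiviral effectors are genes whose transcription interferon switches on in almost every cell type. Here they were 10 mouse genes, Ifit1, Ifit2, Ifit3, Rsad2, Oas2, Oas3, Oasl1, Oasl2, Mx1 and Mx2, taken as the rows of the counts table whose Entrez identifier maps to these symbols, and they made up 10 of the 24454 genes in the table. RNA was sequenced from organ of Corti (OC) explants, the sensory epithelium of the cochlea, which were dissected from C57BL/6N mice of both sexes at postnatal day 5 and kept for 24 h in medium before any drug was added. For the next 6 or 24 h they received no drug (CTRL), 50 µM gentamicin (GM), an aminoglycoside antibiotic that is toxic to hair cells, 10 µM pioglitazone (PIO), which activates PPAR-γ, a nuclear receptor, or gentamicin and pioglitazone together (PIO+GM). There were 3 libraries in each of these 8 groups, and a library pooled 6 explants, so that animals cannot be told apart within a library. All groups shared the strain, the age, a medium that contained penicillin and fetal calf serum, and the day in culture before treatment. The question these comparisons address is whether gentamicin raised the antiviral effectors of the explants and whether pioglitazone changed that response.

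Type I interferons bind the receptor IFNAR1/IFNAR2, whose kinases JAK1 and TYK2 activate transcription factors that bind the interferon-stimulated response element in the promoters of the effector genes. The IFIT proteins bind viral RNA and block its translation. Rsad2 encodes viperin, a radical-SAM enzyme that makes a chain-terminating nucleotide. Oas2 and Oas3 encode 2′-5′-oligoadenylate synthetases, which on sensing double-stranded RNA make 2′-5′-linked oligoadenylates, a messenger of antiviral defence. Oasl1 and Oasl2 encode related OAS-like proteins, of which OASL1 represses the translation of Irf7. Mx1 and Mx2 encode dynamin-like GTPases that trap viral components, and many laboratory strains carry defective alleles of both. Nearly all nucleated cells can mount this response.

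The genes lie in a few clusters. In GRCm38, Ifit2 (chr19:34550694-34576419, plus strand), Ifit3 (chr19:34583531-34588731, plus) and Ifit1 (chr19:34640871-34650009, plus) are neighbours, as are Oasl2 (chr5:114896936-114912234, plus) and Oasl1 (chr5:114923240-114937915, plus). Oas2 (chr5:120730333-120749853, minus) lies beside Oas3 (chr5:120753098-120777661, minus), and Mx1 (chr16:97447035-97462907, minus) near Mx2 (chr16:97535308-97560900, plus). Rsad2 stands alone among them (chr12:26442746-26456452, minus). RefSeq lists Mx1 and Mx2 as transcribed pseudogenes, while GENCODE lists Mx1 as protein coding and Mx2 as a polymorphic pseudogene, so for these genes the counts measure RNA and say nothing about protein. Of the 76-base windows of the Ifit3 transcript, 40.7% were also found in its near-copy Ifit3b, and how the counting treated such reads is not stated, so the level of Ifit3 is uncertain by that share. The shared windows made up 5.1% for Ifit1 (with Ifit1bl2), 2.6% for Mx1 and 3.0% for Mx2 (with each other), and 0.0% for the other 6 genes.

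RefSeq gave a promoter window of 300 bases, from 250 before to 50 after the start site, for 7 of the 10 genes, all but Oas2, Mx1 and Mx2. The core of the interferon-stimulated response element, GAAANNGAAA, or TTTCNNTTTC on the other strand, was searched in each window on both strands. It was present in 4 of these 7 genes, against 3.44% of all 32851 promoter windows and 3.99% of the 27025 genes that have one. The 4 windows that hold it are printed from 5′ to 3′ on the strand of the gene, with the matches in capitals, followed by the window of Oasl1, shown because this gene had some of the largest fold changes and no match to these letters.
Ifit1 promoter (GRCm38.p6, chr19:34640639-34640938, plus): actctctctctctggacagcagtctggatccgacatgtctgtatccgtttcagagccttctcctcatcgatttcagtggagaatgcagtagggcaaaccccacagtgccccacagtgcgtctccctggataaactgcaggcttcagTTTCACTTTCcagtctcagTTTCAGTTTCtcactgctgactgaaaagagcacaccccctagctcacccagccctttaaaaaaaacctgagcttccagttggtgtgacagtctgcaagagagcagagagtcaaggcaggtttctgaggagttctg
Ifit3 promoter (chr19:34583279-34583578, plus): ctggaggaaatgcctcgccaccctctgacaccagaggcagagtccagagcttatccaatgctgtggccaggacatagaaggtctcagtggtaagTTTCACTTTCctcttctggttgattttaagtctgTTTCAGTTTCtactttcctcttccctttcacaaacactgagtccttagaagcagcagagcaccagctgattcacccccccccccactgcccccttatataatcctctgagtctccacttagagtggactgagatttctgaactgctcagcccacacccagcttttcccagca
Rsad2 promoter (chr12:26456403-26456702, minus): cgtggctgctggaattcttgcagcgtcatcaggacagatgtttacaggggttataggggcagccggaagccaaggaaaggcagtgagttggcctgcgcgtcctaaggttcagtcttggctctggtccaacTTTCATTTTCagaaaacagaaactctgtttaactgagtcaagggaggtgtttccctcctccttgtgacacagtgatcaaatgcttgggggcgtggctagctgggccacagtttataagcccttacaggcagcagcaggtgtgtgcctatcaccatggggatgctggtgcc
Oas3 promoter (chr5:120777610-120777909, minus): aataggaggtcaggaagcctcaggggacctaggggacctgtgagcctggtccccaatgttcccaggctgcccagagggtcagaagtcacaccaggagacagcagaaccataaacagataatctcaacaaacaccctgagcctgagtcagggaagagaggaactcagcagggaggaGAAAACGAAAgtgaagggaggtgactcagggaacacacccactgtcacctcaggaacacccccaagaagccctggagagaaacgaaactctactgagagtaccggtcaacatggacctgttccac
Oasl1 promoter (chr5:114922990-114923289, plus): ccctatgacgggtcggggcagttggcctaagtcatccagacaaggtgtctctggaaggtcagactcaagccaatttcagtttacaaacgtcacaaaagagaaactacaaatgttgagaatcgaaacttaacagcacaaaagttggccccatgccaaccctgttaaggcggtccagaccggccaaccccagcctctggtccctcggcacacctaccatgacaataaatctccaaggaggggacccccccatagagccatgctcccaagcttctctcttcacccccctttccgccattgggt
The Ifit1 window held 2 matches that begin 104 and 85 bases before the start site, the Ifit3 window held 2 that begin 156 and 122 bases before it, and Rsad2 and Oas3 held 1 each, at 120 and 75 bases. The 2 windows of Ifit2 and those of Oasl1 and Oasl2 had no match to these letters. A match here is a description of the letters and not evidence of binding.

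All 10 genes had reads in every library and passed the filter on low counts, as did 16317 genes in all. Total counts ran from 7211357 to 15548856 per library, with the lowest in replicate 3 of PIO+GM at 6 h. A count of 3, taken as the floor, corresponded to 0.193 to 0.416 CPM, the standard count scaled to library depth, and Oas3 was at or below 3 counts in 3 libraries. The tissue matched its label, since all 10 hair cell markers, such as Myo7a (30.9 to 96.1 CPM) and Pou4f3 (3.64 to 21.2 CPM), and all 8 supporting cell markers, such as Sox2 (29.8 to 90.1 CPM), had reads in every library. In bulk RNA, fewer cells of a type cannot be told apart from less RNA per cell. Nothing in the labels says whether the libraries of a group came from separate dissections, so p-values measure only the spread between these libraries, part of which may be technical.

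Levels between genes were compared per length, as CPM per kilobase of transcript (RPKM) over the 24 libraries. Ifit3 had the highest median, 7.95 RPKM (range 1.60 to 55.0), followed by Ifit1 at 6.72 (1.09 to 27.4), Oasl2 at 4.39 (1.23 to 21.2), Rsad2 at 3.28 (0.419 to 41.8) and Ifit2 at 3.09 (1.27 to 13.4). Mx2 followed at 2.35 RPKM (0.791 to 9.48), Mx1 at 1.06 (0.173 to 5.72) and Oasl1 at 0.826 (0.0919 to 9.21). The synthetases were the lowest, Oas2 at 0.633 RPKM (0.166 to 2.80) and Oas3 at 0.119 (0.0280 to 0.521). The ranges of all neighbours in this order overlapped across libraries, and the place of Ifit3 is further uncertain because 40.7% of its windows were also found in Ifit3b. The genes differed in how far they moved: the highest library exceeded the lowest 99.8-fold for Rsad2, by about as much for Oasl1, whose lowest library was at the floor of 3 counts, 34.5-fold for Ifit3 and 33.1-fold for Mx1, but 10.6-fold for Ifit2 and 12.0-fold for Mx2.

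The 10 genes moved together from library to library. The mean log2 CPM of the 10 was 3.95 ± 0.94 (SD, n = 3) in PIO+GM at 6 h and 3.92 ± 0.55 in GM at 6 h, the highest groups. Next came GM at 24 h with 3.04 ± 0.85, PIO at 6 h with 2.53 ± 0.39, CTRL at 6 h with 2.23 ± 0.94 and CTRL at 24 h with 2.11 ± 0.97. The lowest were PIO+GM at 24 h with 1.48 ± 0.47 and PIO at 24 h with 1.07 ± 0.21. Neighbours in this order differed by less than the larger of their SDs, except GM at 6 h against GM at 24 h, whose means differed by slightly more. The spread within groups was large, with a pooled SD of 0.72 on the log2 scale, or 1.65-fold.

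**Figure D1:**
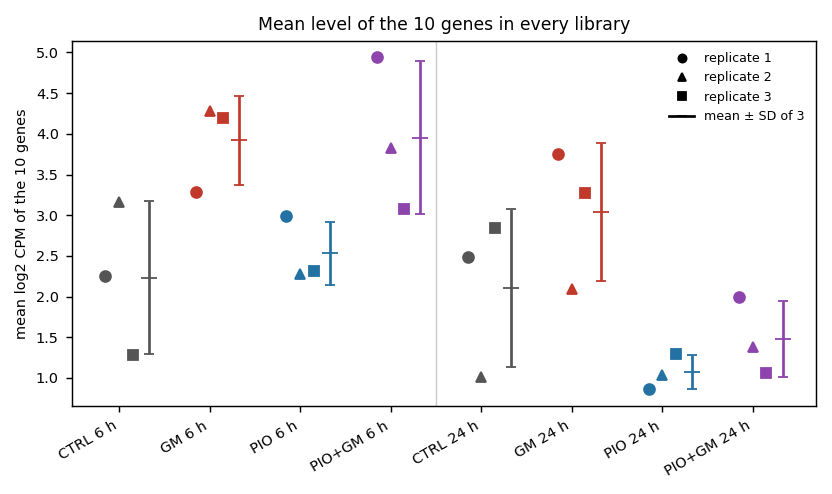
Mean log2 CPM of the 10 genes (vertical axis) in each library of the 8 groups (horizontal axis). Circles, triangles and squares are replicates 1, 2 and 3, and each bar is the mean ± SD of the 3 libraries. The GM and PIO+GM libraries at 6 h lie between 3.07 and 4.94, and the PIO libraries at 24 h between 0.87 and 1.29.

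Within a group, the same library was usually highest for most genes. In PIO+GM at 6 h replicate 1 was highest for all 10 genes and replicate 3 lowest for 8, and the mean log2 CPM was 4.94, 3.82 and 3.07 in replicates 1 to 3. In CTRL at 6 h replicate 2 was highest for 9 genes and replicate 3 lowest for 9 (2.25, 3.16 and 1.28 in replicates 1 to 3). In CTRL at 24 h replicate 2 was lowest for all 10 genes, and in GM at 24 h for 9. Because 1 library raises or lowers most of the 10 genes together, they are not 10 independent measurements of a condition. The comparisons that follow also share libraries, since each group enters several of them, so their values stand side by side and are not independent of each other. Over all 24 libraries, replicate 1 of PIO+GM at 6 h held the highest value of 8 genes, replicate 3 of GM at 6 h that of Oas2 and replicate 1 of GM at 24 h that of Mx2.

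**Figure D2:**
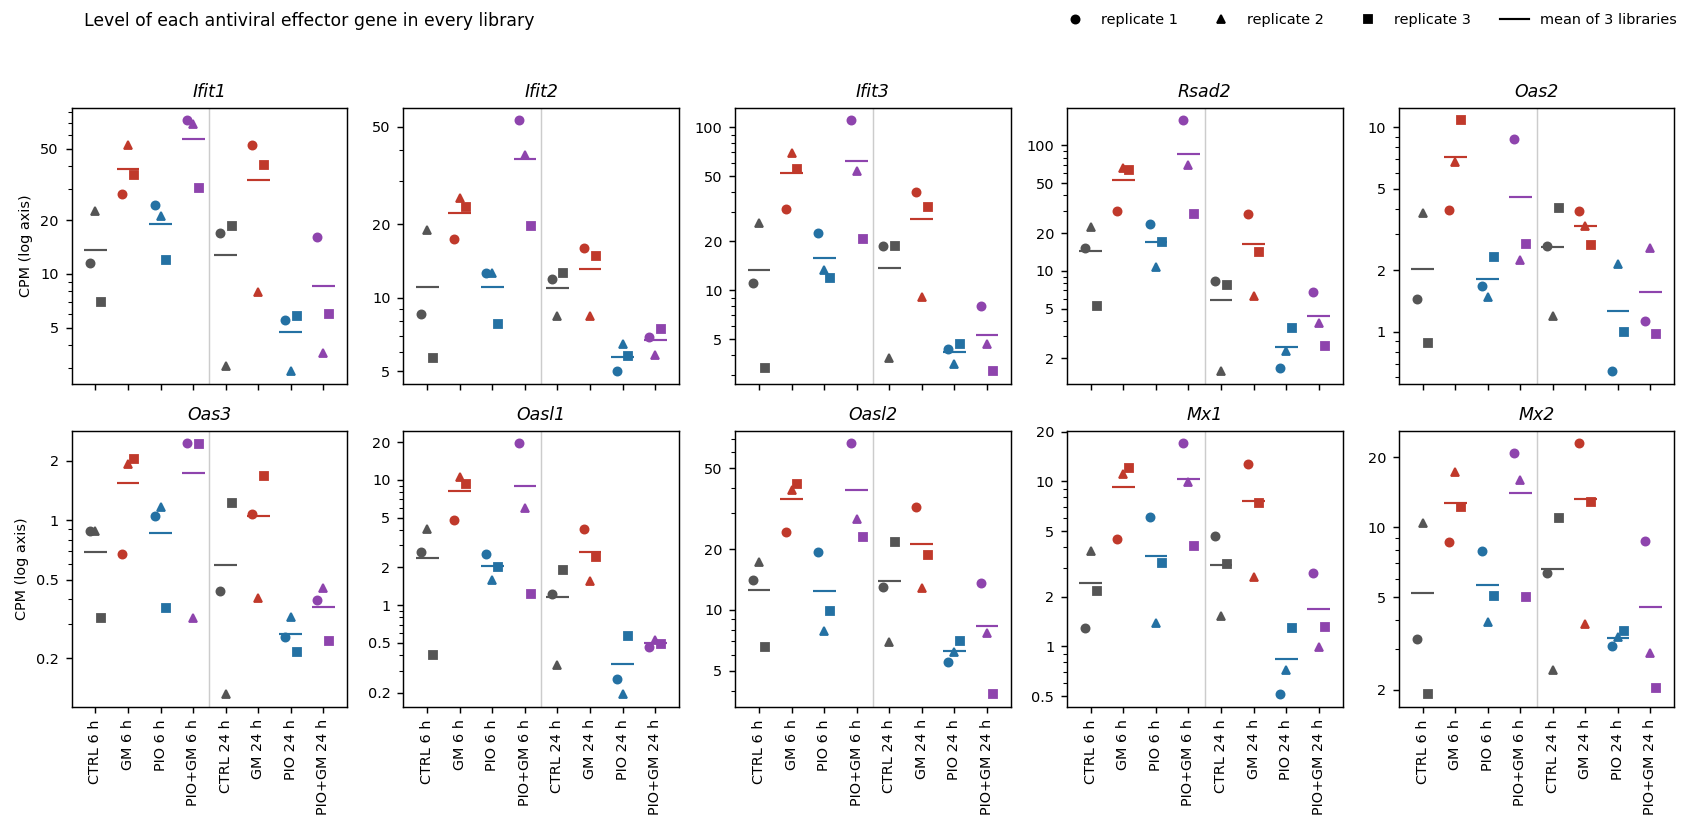
Level in CPM (vertical axis, logarithmic and scaled for each gene) of each of the 10 genes in the 24 libraries, by group (horizontal axis), with circles, triangles and squares for replicates 1, 2 and 3 and a bar at the mean of 3. Replicate 1 of PIO+GM at 6 h is the highest library for 8 genes, and the PIO libraries at 24 h have the lowest group mean for all 10 genes.

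After 6 h with gentamicin alone all 10 genes had higher mean levels than in CTRL, by a median of 1.65 on the log2 scale (3.14-fold), while the median over all tested genes was -0.001. In replicates 1 to 3, Ifit3 measured 31.4, 69.5 and 55.0 CPM in GM and 11.0, 25.8 and 3.35 CPM in CTRL, and Rsad2 measured 29.9, 66.4 and 64.0 CPM in GM and 15.2, 22.3 and 5.27 CPM in CTRL. Every GM library of both genes lay above every CTRL library. Mx1 measured 4.46, 11.1 and 12.0 CPM in GM and 1.29, 3.79 and 2.16 CPM in CTRL. Its groups did not overlap either. Oas2, the gene with the lowest p, measured 3.95, 6.74 and 10.8 CPM in GM and 1.45, 3.79 and 0.879 CPM in CTRL, where its highest value lay just under the lowest of GM. Overall the groups did not overlap for 7 genes, Ifit1, Ifit3, Rsad2, Oas2, Oasl1, Oasl2 and Mx1, against 3.14% of all tested genes that were higher in GM without overlap.

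By edgeR's quasi-likelihood test none of the 10 genes passed an adjusted p of 0.05, and neither did any other gene (0.0%, 0 of 16317). DESeq2 called 0 of the 10 as well. At an unadjusted p under 0.05 stood 8 of the 10 genes, against 243 of all 16317 (1.49%). The log2 fold changes of these were 1.96 (SE 0.69) for Ifit3, 1.94 (SE 0.65) for Mx1, 1.91 (SE 0.65) for Rsad2, 1.82 (SE 0.60) for Oas2 and 1.80 (SE 0.72) for Oasl1. For Ifit1 the log2 fold change was 1.5 (SE 0.66), for Oasl2 1.49 (SE 0.51) and for Ifit2 1.01 (SE 0.37), and the adjusted p of all 8 was 1.0. Of the 2 others, Mx2 had a log2 fold change of 1.30 (SE 0.69) and Oas3 was 2.24-fold higher. Leaving out 1 library at a time moved the median between 1.24 and 2.33, the latter without replicate 2 of CTRL. All 5 Schwann cell markers (median 0.44) and all 5 neuronal markers (median 0.29) were also higher in GM on average, and all 4 red cell markers were lower (median -0.63), with 0 called in each list. The Schwann cell sums were 1677, 2598 and 888 CPM in GM and 1212, 1987 and 644 CPM in CTRL, where they had the same order as the 10 genes. The part of these markers in the result was not tested.

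At 24 h the 10 genes again had higher mean levels in GM than in CTRL, by a median of 1.01 on the log2 scale (2.01-fold), and none passed the adjusted threshold, against 2 of 16317 genes (0.0123%). DESeq2 called 0 as well. Ifit1 measured 52.3, 7.91 and 40.4 CPM in GM and 16.9, 3.04 and 18.6 CPM in CTRL, and Rsad2 28.4, 6.28 and 14.0 CPM in GM and 8.26, 1.59 and 7.77 CPM in CTRL. In both groups replicate 2 was far below the other two, and no gene separated the groups without overlap. Rsad2 (log2 fold change 1.48, SE 0.68) and Ifit1 (1.40, SE 0.66) had unadjusted p-values under 0.05, each with an adjusted p of 1.0, and the other 8 genes lay between 0.26 for Ifit2 and 1.30 for Mx1. Leaving out 1 library at a time moved the median between 0.58, without replicate 2 of CTRL, and 1.46, without replicate 3 of CTRL. Over all alternative fits the log2 fold change of Rsad2 ran from 0.81 to 1.87. All 4 fibroblast markers (median 0.17), all 4 endothelial markers (median 0.20), 4 of 5 Schwann cell markers (median 0.36) and 11 of 14 macrophage markers (median 0.19) were also higher in GM on average. All 5 neuronal markers were lower (median -0.32), and 3 of 10 hair cell markers were higher (median -0.24), with 0 called in each list. Their part in the result was not tested. The test of whether the gentamicin effect differed between 24 h and 6 h called none of the 10 genes and none of all genes (0.0%), with no member at an unadjusted p under 0.05 and 0 by DESeq2. Its lowest p was that of Oas2 (difference -1.48, SE 0.84, adjusted p = 1.0), and the median difference was -0.61.

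**Figure D3:**
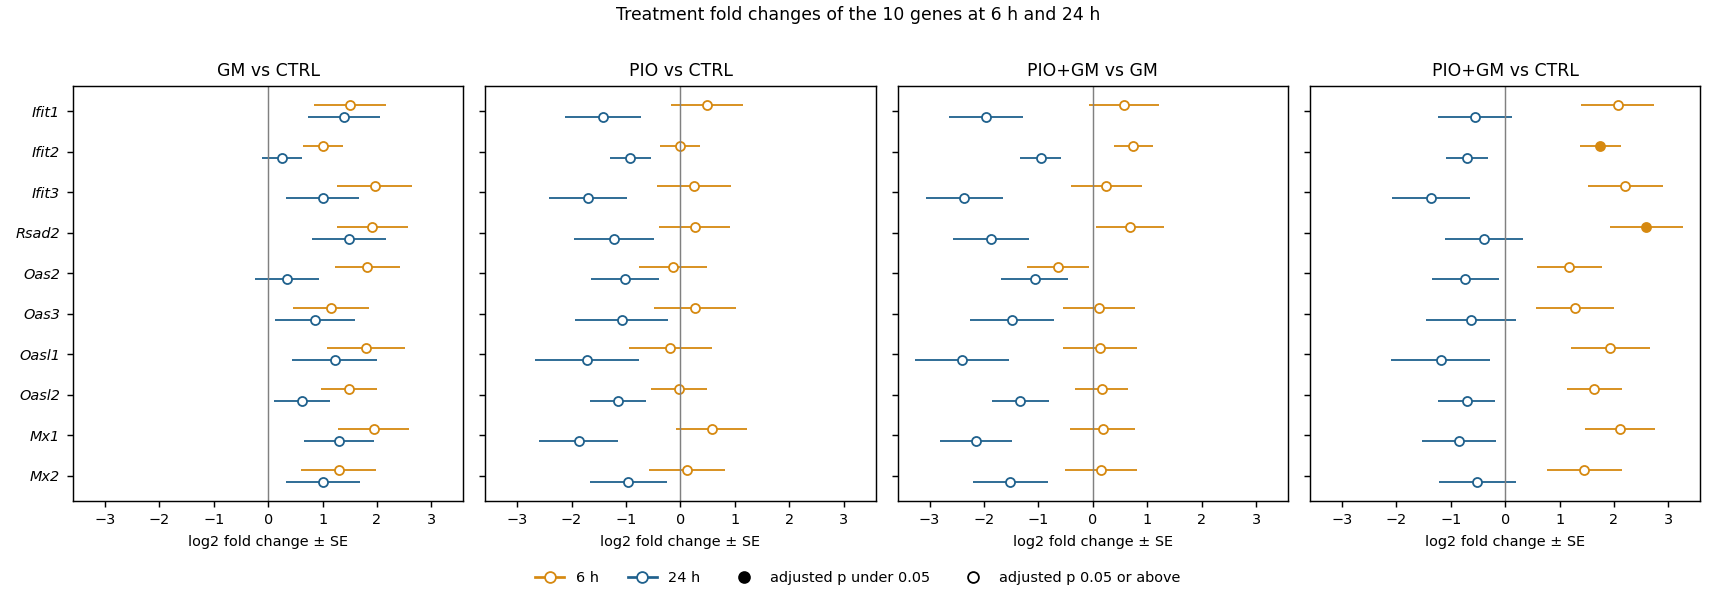
Log2 fold change ± SE (horizontal axis) of each of the 10 genes (vertical axis) for 4 treatment comparisons at 6 h (orange) and 24 h (blue), from edgeR with 3 libraries per group. Filled points passed an adjusted p of 0.05, which were Ifit2 and Rsad2 in PIO+GM against CTRL at 6 h. In PIO+GM against GM the 24 h points of all 10 genes lie below 0, while 9 of the 10 points at 6 h lie above it.

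With pioglitazone alone the median log2 fold change of the 10 genes at 6 h was 0.18, and it ran from -0.25, without replicate 3 of CTRL, to 0.70, without replicate 2 of CTRL, when 1 library was left out. In the fit of all libraries 6 were above and 4 below 0, with a range from -0.19 for Oasl1 to 0.57 for Mx1. None passed the test, none had an unadjusted p under 0.05, and DESeq2 called 0, against 55 of all genes called (0.337%). Mx1, with the lowest p, measured 6.05, 1.38 and 3.18 CPM in PIO and 1.29, 3.79 and 2.16 CPM in CTRL, and its groups overlapped (SE 0.66, adjusted p = 0.718). The SEs ran from 0.37 for Ifit2 to 0.76 for Oasl1 on the log2 scale. All 5 Schwann cell markers (median -0.75), all 5 neuronal markers (median -0.51) and all 4 endothelial markers (median -0.52) were lower in PIO on average, with 0 called. So were all 4 fibroblast markers (median -0.71, 1 called) and all 4 red cell markers (median -0.19, 0 called). The part of these markers in the result was not tested.

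At 24 h all 10 genes had lower mean levels in PIO than in CTRL, and the median change was -1.19 on the log2 scale (2.27-fold lower). Mx1 measured 0.514, 0.716 and 1.29 CPM in PIO and 4.66, 1.52 and 3.14 CPM in CTRL, and Ifit2 measured 5.01, 6.44 and 5.79 CPM in PIO and 11.9, 8.39 and 12.6 CPM in CTRL. These were the 2 genes whose groups did not overlap, against 10.6% of all genes lower in PIO without overlap. Ifit3 measured 4.37, 3.51 and 4.65 CPM in PIO and 18.6, 3.83 and 18.8 CPM in CTRL, where replicate 2 of CTRL fell within the PIO range. No gene of the 10 passed the adjusted threshold by edgeR or DESeq2, against 25 of all genes (0.153%), and 4 had an unadjusted p under 0.05, against 9.93% of all genes. These were Mx1 (log2 fold change -1.87, SE 0.72), Ifit2 (-0.92, SE 0.38), Ifit3 (-1.70, SE 0.72) and Oasl2 (-1.15, SE 0.52), with adjusted p-values from 0.364 to 0.470. Of the cell type markers, 3 of 4 for fibroblasts (median -0.45), 4 of 5 for Schwann cells (median -0.40), 9 of 10 for hair cells (median -0.34) and all 4 for endothelium (median -0.26) were also lower in PIO on average, and all 4 red cell markers were higher (median 0.58), with 0 called. Their part in the result was not tested. The difference between the pioglitazone effects at 24 h and 6 h was below 0 for all 10 genes, with a median of -1.42, but it was called for none of them by either tool and for no other gene (0.0%). Mx1 alone had an unadjusted p under 0.05 (difference -2.44, SE 0.98, adjusted p = 0.898).

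With pioglitazone added to gentamicin, the 10 genes were not lower as a group at 6 h. Against GM the median log2 fold change was 0.17, with 9 genes above 0, from -0.64 for Oas2 to 0.74 for Ifit2. None was called by edgeR or DESeq2 and none had an unadjusted p under 0.05, against 216 of all genes called (1.32%). Ifit2, with the lowest p, measured 53.0, 38.1 and 19.6 CPM in PIO+GM and 17.4, 25.4 and 23.5 CPM in GM. The groups overlapped through replicate 3 of PIO+GM (SE 0.36, adjusted p = 0.205). Leaving out 1 library at a time moved the median of the 10 genes between -0.35 and 0.59. All 5 Schwann cell markers (median -0.41, 0 called), all 5 neuronal markers (median -0.18, 0 called) and all 4 fibroblast markers (median -0.64, 1 called) were lower in PIO+GM on average. Of the red cell markers 3 of 4 were higher (median 0.53, 0 called). The part of these markers in the result was not tested.

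At 24 h the same comparison gave lower mean levels of all 10 genes with both drugs than with gentamicin alone, by a median of -1.69 on the log2 scale (3.23-fold lower), against 0.0 for all genes. Leaving out 1 library at a time moved this median between -2.34, without replicate 1 of PIO+GM, and -1.33. Ifit3 measured 7.94, 4.70 and 3.19 CPM in PIO+GM and 40.2, 9.12 and 32.6 CPM in GM, and Oasl1 measured 0.463, 0.530 and 0.491 CPM in PIO+GM and 4.05, 1.55 and 2.40 CPM in GM. For both genes every PIO+GM library lay below every GM library. Ifit1 measured 16.1, 3.64 and 5.97 CPM in PIO+GM and 52.3, 7.91 and 40.4 CPM in GM. Its groups overlapped, since replicate 1 of PIO+GM lay above replicate 2 of GM. The groups did not overlap for 4 genes, Ifit2, Ifit3, Oas2 and Oasl1, against 8.57% of all genes lower in PIO+GM without overlap.

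None of the 10 passed the adjusted threshold at 24 h, against 18 of all genes (0.11%), and DESeq2 called 0 as well. An unadjusted p under 0.05 was found for 8 of the 10 genes, against 7.47% of all genes. The lowest belonged to Ifit3, with a log2 fold change of -2.36 (SE 0.71) and an adjusted p of 0.325, and then to Mx1, with -2.14 (SE 0.66) and an adjusted p of 0.342. Oasl1 (-2.40, SE 0.86), Ifit1 (-1.96, SE 0.68), Rsad2 (-1.87, SE 0.69), Mx2 (-1.52, SE 0.69), Oasl2 (-1.33, SE 0.52) and Ifit2 (-0.96, SE 0.38) followed, with adjusted p-values from 0.428 to 0.640. For Oas3 and Oas2 the log2 fold changes were -1.49 (SE 0.77) and -1.07 (SE 0.61). The 4 fibroblast markers were also lower in PIO+GM than in GM at 24 h, with a median of -0.95 and 0 called, and their summed level ran from 1950 to 2656 CPM in PIO+GM and from 3013 to 5898 CPM in GM. All 4 endothelial markers were lower as well (median -0.50) and all 4 red cell markers higher (median 0.50), with 0 called. The part of these markers in the result was not tested.

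The difference between the effects of added pioglitazone at 24 h and at 6 h was below 0 for all 10 genes, with a median of -2.01. It was called for none of them and for no other gene (0.0%) by edgeR, and for none of the 10 by DESeq2, but 7 of the 10 had an unadjusted p under 0.05, against 4.06% of all genes. Ifit2 had the lowest p (difference -1.70, SE 0.52), then Rsad2 (-2.55, SE 0.93), Ifit1 (-2.52, SE 0.93), Ifit3 (-2.60, SE 0.96) and Mx1 (-2.32, SE 0.89). Oasl1 (-2.53, SE 1.09) and Oasl2 (-1.49, SE 0.71) completed the 7, and the adjusted p was 0.843 for each. Without replicate 1 of PIO+GM at 6 h the differences of Ifit3, Rsad2, Oasl1 and Oasl2 were -1.88, -1.74, -1.25 and -0.86, and without replicate 1 of PIO+GM at 24 h that of Ifit1 was -3.36. Whether pioglitazone acted differently with gentamicin than without it was tested too. That difference had a median of 0.06 at 6 h and -0.47 at 24 h, and it was called for no gene at 6 h (0.0%) and none at 24 h (0.0%), with 0 of the 10 at an unadjusted p under 0.05 and 0 by DESeq2 at both times.

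Against CTRL, both drugs together gave the only treatment comparison in which any of the 10 genes passed the adjusted threshold by the quasi-likelihood test with TMM scaling on all 24 libraries and no block, at 6 h, while DESeq2 also called some of them in others. Rsad2 and Ifit2 rose, and all 10 genes had higher means, by a median of 1.84 on the log2 scale (3.58-fold). Without replicate 1 of PIO+GM the median was 1.22, and without replicate 2 of CTRL it was 2.49. Rsad2 measured 158, 69.8 and 28.4 CPM in PIO+GM and 15.2, 22.3 and 5.27 CPM in CTRL, a log2 fold change of 2.59 (SE 0.67, adjusted p = 0.0441, 6.02-fold). Ifit2 measured 53.0, 38.1 and 19.6 CPM in PIO+GM and 8.61, 18.9 and 5.67 CPM in CTRL, a log2 fold change of 1.75 (SE 0.37, adjusted p = 0.025, 3.36-fold). In both genes every PIO+GM library lay above every CTRL library, by a small margin for Ifit2. The groups were also apart for Ifit1, Oasl2 and Mx1, which made 5 genes without overlap, against 9.65% of all genes higher in PIO+GM without overlap. Whether Ifit2 was called also depended on the other genes tested. Its unadjusted p by the quasi-likelihood test was 0.000151 here and 0.00015 in PIO+GM against PIO at 6 h. The log2 fold change was 1.75 in both. Against PIO its adjusted p was 0.998, with 0 of all genes called, against 431 here.

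The 2 called genes stand against 431 of all 16317 called (2.64%). At an unadjusted p under 0.05 stood 7 of the 10, against 23.6% of all genes, and the other 5 were Mx1 (log2 fold change 2.11, SE 0.65, adjusted p = 0.0799), Oasl2 (1.64, SE 0.51, adjusted p = 0.0812), Ifit3 (2.21, SE 0.69, adjusted p = 0.0816), Ifit1 (2.07, SE 0.67, adjusted p = 0.0887) and Oasl1 (1.93, SE 0.73, adjusted p = 0.126). DESeq2 called 6. The 2 calls rested on few libraries: 0 genes were called without replicate 1 or replicate 3 of CTRL or without replicate 2 of PIO+GM, 1 without replicate 1 or without replicate 3 of PIO+GM, and 3 without replicate 2 of CTRL. Without replicate 1 of PIO+GM the log2 fold change was 1.79 for Rsad2 and 0.65 for Oasl1. Fold changes of all genes in this comparison ran with GC content (Spearman's rho -0.59 over 15390 genes), and the 10 genes had transcript GC contents from 42.0% to 56.3%. With that trend removed 1 of the 10 was called, while the median was 1.76 and the log2 fold change of Rsad2, the call that was lost, was 2.48 (adjusted p = 0.0723). A GC trend was not particular to this comparison. At 6 h rho was also -0.63 in PIO+GM against GM, -0.48 in PIO+GM against PIO, -0.44 in PIO against GM and -0.38 in PIO against CTRL. With it removed the medians of the 10 genes there were 0.25, 1.61, -1.47 and 0.15. In GM against CTRL at 6 h rho was 0.13. Schwann cell markers varied in the same order among the PIO+GM libraries as the 10 genes, with summed levels of 2468, 1161 and 303 CPM in replicates 1 to 3, against 1212, 1987 and 644 CPM in CTRL. None of the 5 markers was called. The 4 fibroblast markers summed to 3333, 1958 and 1575 CPM in PIO+GM, also in that order, against 2807 to 4145 CPM in CTRL, with 1 called lower. All 4 endothelial markers were lower in PIO+GM on average (median -0.28). Of the supporting cell markers 1 of 8 was higher (median -0.36), and of the hair cell markers 4 of 10 (median -0.49), with 0 called in these 3 lists. The part of any of these markers in the result was not tested.

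At 24 h both drugs together left the 10 genes under CTRL on average, all 10 below 0 and with a median of -0.71 on the log2 scale. Without replicate 1 of PIO+GM the median was -1.19, and without replicate 3 of CTRL it was -0.25. None was called by edgeR or DESeq2 and none had an unadjusted p under 0.05, against 78 of all genes called (0.478%). Ifit3, with the lowest p, measured 7.94, 4.70 and 3.19 CPM in PIO+GM and 18.6, 3.83 and 18.8 CPM in CTRL (log2 fold change -1.36, SE 0.71, adjusted p = 0.622). Replicate 2 of CTRL lay inside the PIO+GM range, and Ifit2 was the 1 gene without overlap, against 10.2% of all genes lower in PIO+GM without overlap. All 10 hair cell markers (median -0.62), all 5 neuronal markers (median -0.64), all 4 fibroblast markers (median -0.79) and all 4 endothelial markers (median -0.30) were also lower in PIO+GM on average, and all 4 red cell markers were higher (median 0.37), with 0 called. Their part in the result was not tested.

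Against PIO, the combination showed what gentamicin added in the presence of pioglitazone. At 6 h all 10 genes were higher on average, by a median of 1.63 on the log2 scale (3.09-fold), or 1.02 without replicate 1 of PIO+GM. Ifit2 measured 53.0, 38.1 and 19.6 CPM with both drugs and 12.6, 12.6 and 7.81 CPM with PIO alone (log2 fold change 1.75, SE 0.38), and Rsad2 measured 158, 69.8 and 28.4 CPM against 23.5, 10.8 and 16.9 CPM (2.32, SE 0.66). These genes, Ifit1 and Oasl2 showed no overlap, 4 of the 10, against 1.7% of all genes higher without overlap. No gene passed the adjusted threshold, among the 10 or all tested genes (0.0%), and DESeq2 called 1 of the 10. With an unadjusted p under 0.05 stood 8 of the 10, against 3.06% of all genes, the other 6 with log2 fold changes from 1.32 (SE 0.61) for Oas2 to 2.13 (SE 0.74) for Oasl1, or 0.41 and 0.84 for these genes without replicate 1 of PIO+GM, and the adjusted p of each was 0.998. All 5 Schwann cell markers (median 0.84) and all 5 neuronal markers (median 0.59) were also higher on average, with 0 called, and their part in the result was not tested. At 24 h the median was 0.45, all 10 genes lay above 0, none had an unadjusted p under 0.05 and none was called by either tool, against 12 of all genes called (0.0735%). Mx1, with the lowest p, measured 2.78, 0.9848 and 1.31 CPM in PIO+GM and 0.514, 0.716 and 1.29 CPM in PIO (log2 fold change 1.03, SE 0.74, adjusted p = 1.0), and its groups overlapped.

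The contrast between the single drugs was large at both times. At 6 h all 10 genes were lower in PIO than in GM, by a median of -1.44 on the log2 scale (2.71-fold), and 8 did not overlap, against 8.71% of all genes lower without overlap. None was called, against 21 of all genes (0.129%), and DESeq2 called 0. Oas2 measured 1.67, 1.48 and 2.31 CPM in PIO and 3.95, 6.74 and 10.8 CPM in GM (log2 fold change -1.96, SE 0.60, adjusted p = 0.155). Every PIO library of Oas2 lay below every GM library. In all, 7 of the 10 had an unadjusted p under 0.05, against 15.7% of all genes, the other 6 being Oasl1 (-1.99, SE 0.73), Ifit3 (-1.72, SE 0.68), Rsad2 (-1.64, SE 0.65), Oasl2 (-1.51, SE 0.51), Mx1 (-1.37, SE 0.63) and Ifit2 (-1.01, SE 0.37). All 5 Schwann cell markers were also lower in PIO on average (median -1.23, 0 called), with sums of 384, 1565 and 377 CPM against 1677, 2598 and 888 CPM in GM. So were all 5 neuronal markers (median -0.80, 0 called) and all 4 fibroblast markers (median -0.80), of which Pdgfra was called (-1.01, SE 0.14, adjusted p = 0.00261). All 4 endothelial markers were lower as well (median -0.36) and all 4 red cell markers higher (median 0.42), with 0 called. The part of these markers in the result was not tested.

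At 24 h all 10 genes were lower in PIO than in GM without any overlap between the libraries, against 10.1% of all genes, and the median log2 fold change was -2.34 (5.06-fold lower). Mx1 measured 0.514, 0.716 and 1.29 CPM in PIO and 12.8, 2.63 and 7.41 CPM in GM (log2 fold change -3.17, SE 0.71, 9.02-fold). Its adjusted p of 0.0514 was the lowest and just missed the threshold. Ifit1 measured 5.53, 2.86 and 5.79 CPM in PIO and 52.3, 7.91 and 40.4 CPM in GM (-2.82, SE 0.71, adjusted p = 0.087). All 10 genes had an unadjusted p under 0.05, against 10.2% of all genes, but edgeR's quasi-likelihood test called none of them, against 74 of all genes (0.454%). DESeq2 and edgeR's likelihood ratio test each called 6 of the 10, and the quasi-likelihood test called 2 without replicate 2 of GM, in which the 10 genes were low. The other 8 genes had log2 fold changes of -2.94 (SE 0.89) for Oasl1, -2.70 (SE 0.73) for Ifit3, -2.70 (SE 0.72) for Rsad2, -1.98 (SE 0.70) for Mx2, -1.94 (SE 0.79) for Oas3, -1.76 (SE 0.52) for Oasl2, -1.37 (SE 0.62) for Oas2 and -1.18 (SE 0.38) for Ifit2. The 4 fibroblast markers (median -0.78), the 5 Schwann cell markers (median -0.58) and the 4 endothelial markers (median -0.47) were also all lower in PIO on average, and the 4 red cell markers all higher (median 0.71), with 0 called, and their part in the result was not tested.

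The most calls among the 10 genes came over time, in PIO+GM and PIO. Many other genes were called there too, which makes the adjusted threshold easier to pass. In PIO+GM all 10 genes had lower means at 24 h than at 6 h, with a median of -2.53 on the log2 scale (5.78-fold lower), against 0.007 over all genes. Of the 10, edgeR called 8 and DESeq2 called 10. Rsad2 went from 158, 69.8 and 28.4 CPM at 6 h to 6.75, 3.86 and 2.54 CPM at 24 h, a log2 fold change of -4.27 (SE 0.73, adjusted p = 0.000281, 19.3-fold). Oasl1 went from 19.6, 5.94 and 1.22 CPM to 0.463, 0.530 and 0.491 CPM (-4.17, SE 0.85, adjusted p = 0.00113, 17.9-fold). In both genes even the lowest library at 6 h lay above the highest at 24 h. Without replicate 1 at 6 h the log2 fold change was -3.47 for Rsad2 and -2.87 for Oasl1. The others that edgeR called were Ifit3 (log2 fold change -3.54, SE 0.74, adjusted p = 0.00133), Ifit1 (-2.73, SE 0.69, adjusted p = 0.00525), Mx1 (-2.60, SE 0.67, adjusted p = 0.00575), Ifit2 (-2.46, SE 0.39, adjusted p = 0.000142), Oasl2 (-2.22, SE 0.52, adjusted p = 0.00318) and Oas3 (-2.17, SE 0.76, adjusted p = 0.0324).

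The 2 genes that edgeR did not call in PIO+GM, although DESeq2 did, were Mx2 (log2 fold change -1.62, SE 0.69, adjusted p = 0.0761) and Oas2 (-1.56, SE 0.61, adjusted p = 0.0546). With 1 library left out Mx2 ran from -2.51, without replicate 1 at 24 h, to -1.21, and was called in 2 of 6 fits (without replicate 3 at 6 h or replicate 1 at 24 h). Oas2 ran from -2.11 to -0.64, the latter without replicate 1 at 6 h, and was called in 3 of 6 fits (without replicate 2 or replicate 3 at 6 h or replicate 2 at 24 h). The groups did not overlap for 7 genes, against 20.7% of all genes lower at 24 h without overlap, and Oas3, although called, overlapped through its low replicate 2 at 6 h (2.46, 0.321 and 2.43 CPM against 0.397, 0.455 and 0.245 CPM). The 8 calls stand against 5646 of all genes (34.6%), since culture time moved a large share of the transcriptome, and 2770 of those 5646 were lower at 24 h. Leaving out 1 library at a time left 7 to 9 of the 10 called. The call of Oas3 was lost without replicate 1 or replicate 3 at 6 h and without any 1 of the libraries at 24 h, with adjusted p-values up to 0.119.

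**Figure D4:**
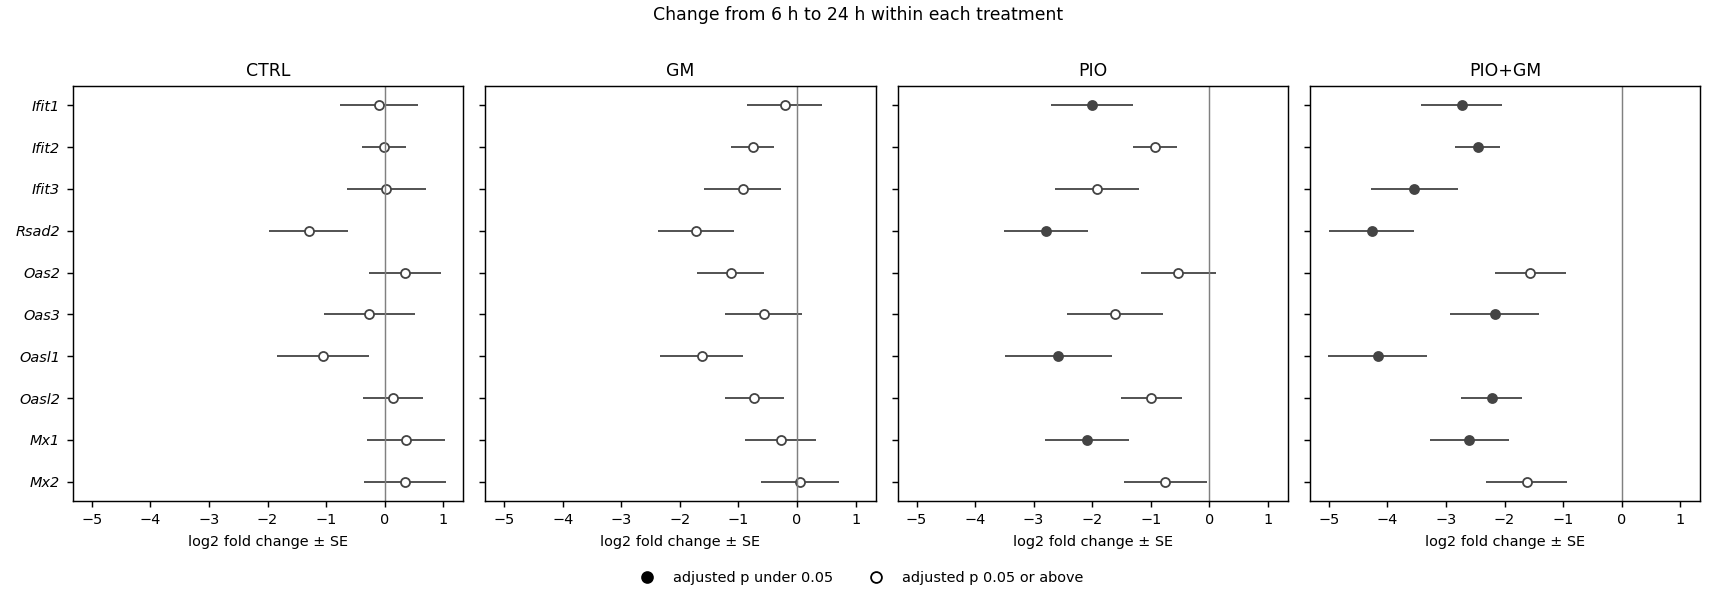
Log2 fold change ± SE from 6 h to 24 h (horizontal axis) of each of the 10 genes (vertical axis) within each treatment, from edgeR with 3 libraries per group. Filled points passed an adjusted p of 0.05, which 0 genes did in CTRL and GM, 4 in PIO and 8 in PIO+GM.

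With pioglitazone alone all 10 genes had lower means at 24 h than at 6 h. Of these, edgeR called 4, against 4731 of all genes called (29.0%), of which 2585 were lower at 24 h. DESeq2 called 6 of the 10. Rsad2 went from 23.5, 10.8 and 16.9 CPM to 1.67, 2.28 and 3.51 CPM (log2 fold change -2.79, SE 0.72, adjusted p = 0.00807), and this call was kept when any single library was left out. Oasl1 (-2.58, SE 0.91, adjusted p = 0.0393), Mx1 (-2.09, SE 0.72, adjusted p = 0.0359) and Ifit1 (-2.01, SE 0.70, adjusted p = 0.0374) were nearer the threshold. Unadjusted p-values of these genes by the quasi-likelihood test were 0.0102, 0.00896 and 0.00949. In PIO against GM at 24 h they were lower (0.0036, 0.000247 and 0.000734), yet no gene of the 10 was called there. For Rsad2 the unadjusted p was 0.00103 over time and 0.00131 in PIO against GM at 24 h. Without replicate 1 at 6 h, replicate 1 at 24 h or replicate 2 at 24 h 1 gene was called, without replicate 2 at 6 h or replicate 3 at 24 h 2, and without replicate 3 at 6 h 5. Ifit3 (-1.92, SE 0.72, adjusted p = 0.0518) and Ifit2 (-0.93, SE 0.38, adjusted p = 0.0721) had an unadjusted p under 0.05. The median of the 10 was -1.77, and 9 genes did not overlap, all but Oas2, against 20.7% of all genes lower at 24 h without overlap.

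In GM none of the 10 passed the adjusted threshold between 6 and 24 h, against 24.2% of all genes, and the median was -0.75. The groups did not overlap for Ifit2, Rsad2, Oas2 and Oasl1, against 22.2% of all genes lower at 24 h without overlap. Rsad2 went from 29.9, 66.4 and 64.0 CPM to 28.4, 6.28 and 14.0 CPM (log2 fold change -1.73, SE 0.65, adjusted p = 0.0572), and its highest library at 24 h lay just under its lowest at 6 h. Oasl1 (-1.63, SE 0.71, adjusted p = 0.10) was the other gene with an unadjusted p under 0.05. DESeq2 called 1 of the 10, and edgeR called 1 without replicate 1 of GM at 24 h, 2 in the fit of the 6 libraries compared and 3 with a replicate block. Mx2 (0.05, SE 0.66) and Ifit1 (-0.21, SE 0.64) had about the same mean level at both times, although replicate 2 at 24 h was low.

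In CTRL the median was 0.01, with 5 genes above and 5 below 0. None was called by edgeR or DESeq2 and none had an unadjusted p under 0.05, against 28.0% of all genes called. Rsad2, with the lowest p, went from 15.2, 22.3 and 5.27 CPM to 8.26, 1.59 and 7.77 CPM (log2 fold change -1.30, SE 0.68, adjusted p = 0.165), and Oasl1 changed by -1.05 (SE 0.79), while the other 8 lay between -0.26 and 0.36. Rsad2 and Oasl1 thus had the most negative time change of the 10 genes in every treatment. The difference in time change between treatments is the same contrast as the difference in treatment effect between the times, and none of the 3 such differences tested was called for any of the 10 genes. These were GM against CTRL, PIO against CTRL and PIO+GM against GM. The other pairs of treatments, such as PIO+GM against CTRL, were not tested in this way.

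The close relatives and neighbours of the 10 genes were described by a list of 13, of which 10 were tested. In GM against CTRL at 6 h 9 of these 10 lay above 0, with a median log2 fold change of 1.00, and 5 had an unadjusted p under 0.05. Among them Ifit3b had 1.90 (SE 0.64), Oas1a 1.64 (SE 0.53), Oas1g 1.5 (SE 0.50), Cmpk2 1.35 (SE 0.43) and Oas1b 1.19 (SE 0.50). Cmpk2 encodes a mitochondrial nucleotide kinase next to Rsad2, and it rose in PIO+GM against CTRL at 6 h (1.68, SE 0.43, adjusted p = 0.0462). Over time in PIO+GM Ifit3b (-3.59, SE 0.70, adjusted p = 0.000832), Cmpk2 (-2.25, SE 0.44, adjusted p = 0.000884), Ifit1bl2 (-2.37, SE 0.72, adjusted p = 0.0159) and Oas1b (-1.33, SE 0.50, adjusted p = 0.0432) fell. Oas1d, another relative of the synthetases with at most 41 counts per library, was lower in PIO than in GM at 24 h (-3.70, SE 0.70, adjusted p = 0.0174).

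Not all relatives moved this way. Oas1c rose with time in CTRL (1.49, SE 0.42), GM (1.48, SE 0.40) and PIO (1.18, SE 0.40), and Oas1d in CTRL (1.97, SE 0.65) and GM (2.04, SE 0.60). In the same libraries Oas2 and Oas3 showed no called time change in CTRL, GM or PIO.

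Upstream of the effectors, interferon transcripts were at or near 0. Of 21 interferon ligand genes none passed the filter, their summed level was 0.257 to 4.46 CPM, and Ifnb1 had 0 to 2 counts per library, with a median of 0 CPM. Transcripts present in few cells or for a short time might not be detectable at this depth, which was not tested. All 9 receptor and kinase genes were present, Ifnar1 between 141 and 174 CPM, and none was called in any treatment comparison. Over time Jak1 fell in all 4 treatments, with log2 fold changes from -0.65 (SE 0.14) in PIO+GM to -0.53 (SE 0.14) in GM, and Tyk2 rose in PIO+GM (0.86, SE 0.18) and PIO (0.51, SE 0.18).

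Among the transcription factors of the pathway, Stat2 (-1.14, SE 0.34, adjusted p = 0.0137) and Irf9 (-0.97, SE 0.22, adjusted p = 0.00261) fell from 6 to 24 h in PIO+GM. In GM against CTRL at 6 h Irf7 (1.92, SE 0.62), Stat2 (0.85, SE 0.33) and Irf9 (0.46, SE 0.22) had an unadjusted p under 0.05, and the adjusted p of each was 1.0. Of the 5 inhibitors and modifiers, Usp18, a protease that dampens signalling at the receptor, and Isg15, the ubiquitin-like modifier it removes, fell from 6 to 24 h in PIO+GM (-2.58, SE 0.70, adjusted p = 0.00814, and -2.97, SE 0.61, adjusted p = 0.00112), and Isg15 also in PIO (-1.83, SE 0.64, adjusted p = 0.0377). None of the 5 was called in a treatment comparison.

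Cell type markers were read beside these results. All 14 macrophage markers were present, with a summed level of 68.6 to 331 CPM, and none was called in the 12 treatment comparisons. Their median log2 fold change was 0.15 in GM against CTRL at 6 h and -0.20 in PIO+GM against GM at 24 h. Over time they were higher at 24 h in every treatment, with medians of 0.75 in CTRL (13 of 14 higher, 2 called), 0.78 in GM (14 higher, 2 called), 0.71 in PIO (12 higher, 4 called) and 0.86 in PIO+GM (13 higher, 5 called). The 5 neutrophil markers summed to 0.0643 to 1.89 CPM and the 5 markers of T and NK cells in the table to 0.0662 to 3.78 CPM, and none of either list passed the filter. Of the 5 markers of plasmacytoid dendritic cells, the defining Siglech had 0 to 9 counts, and the sum of 183 to 290 CPM came mostly from Tcf4, which many cell types express. None of the 10 hair cell markers, 8 supporting cell markers, 5 Schwann cell markers, 5 neuronal markers, 4 endothelial markers or 4 red cell markers was called in a treatment comparison, while the 4 fibroblast markers gave 4 calls over the 12. Schwann cell markers were lower at 24 h than at 6 h in PIO+GM (median -1.30, 2 of 5 called lower), as were neuronal markers (median -1.72, 2 of 5 called lower) and red cell markers (median -1.53, 3 of 4 called lower). Schwann cell markers were also lower in CTRL (median -1.63, 2 called), GM (median -2.0, 4 called) and PIO (median -0.86, 2 called), neuronal markers in CTRL (median -0.93, 1 called), GM (median -1.62, 2 called) and PIO (median -0.86, 0 called), and red cell markers in CTRL (median -2.08, 4 called), GM (median -1.53, 4 called) and PIO (median -1.34, 3 called). The part of these markers in the time changes of the effectors was not tested.

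The tested genes outside the 10 with the most similar pattern were ranked by Pearson's r with the mean of the members' z-scored log2 CPM over the 24 libraries, as a description without a test, since the libraries share treatment, time and depth. They were Ifit3b (r = 0.983), Ifi44 (0.979), Isg15 (0.978), Usp18 (0.975), Ifi47 (0.971), Igtp (0.966), Rtp4 (0.961), Parp12 (0.957), Ifih1 (0.952) and Parp14 (0.948). Part of the likeness of Ifit3b may come from reads it shares with Ifit3. Among the 10 themselves, r with the mean of the other 9 was highest for Ifit3 (0.987) and Oasl2 (0.963) and lowest for Oas2 (0.810) and Oas3 (0.769), the 2 genes with the lowest levels per length.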

How the data were processed

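RNA of 24 libraries was sequenced by the authors from stranded total RNA libraries, mapped with RNA-STAR to mm10 (the submitters' processing notes name both STAR and mm10), and counted with QuasR, which assigned a read to a gene when its start fell in a RefSeq exon. The deposited values are raw counts, neither normalized nor filtered. Whether strand was used and how multi-mapping reads were handled is not given in the sources used here. The deposited gene length in base pairs was used for RPKM.

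Of 24454 Entrez identifiers, 24374 matched a symbol. Counts were fitted with edgeR 4.0.16 (R 4.3.3): TMM scaling, filterByExpr by group (16317 genes kept), 1 mean per group over all 24 libraries, quasi-likelihood F-tests of 16 comparisons and 5 differences, and Benjamini-Hochberg adjustment over all genes tested, at 0.05. SE is the log2 fold change divided by the square root of F. CPM used TMM library sizes, with TMM factors from 0.961 to 1.038, and log2 CPM a prior count of 2. The script was tested on simulated counts. Groups came from the sample titles. All 10 genes are named. Fold change, SE and p are given for a gene with an unadjusted p under 0.05 and for the lowest p of each comparison. Alternatives were a replicate block, library size scaling, DESeq2 size factors, no filter or one of at least 10 counts in each library, edgeR's likelihood ratio test, DESeq2 1.42.0, fits restricted to the 12 libraries of 1 time point or to the 6 compared, each library left out, and, added after seeing the data, removal of the GC trend with and without the block. Depth was 7211357 to 15548856 counts per library, and floors cover counting error only. The genes and lists were chosen with earlier results of these data known. Promoter windows came from RefSeq (GRCm38.p6) and coordinates from GENCODE (GRCm38). Some genes of the lists are not reported here.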

Additional observations from a re-analysis of the deposited data

How the results depend on the processing

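No direction of the 80 single-gene results with an unadjusted p under 0.05 reversed under any alternative run (1349 values, 1238 on the same side of the threshold, 76 newly past it and 35 no longer past it). The number of the 10 genes called was less stable where it was near the threshold, and the cause was not tested. For PIO+GM against CTRL at 6 h, main count 2, it was 6 with the replicate block, the likelihood ratio test or DESeq2, 1 with no filter or with the GC trend removed, 4 with that trend removed and the block, 0 with the 12 libraries of the time point or the 6 of the comparison, and 0 to 3 with 1 library left out. For PIO against GM at 24 h, main count 0, it was 6 with the likelihood ratio test or DESeq2, 3 with the replicate block, the 12 libraries of the time point, or the GC trend removed with the block, 1 with library size only or the GC trend removed, and 0 to 2 with 1 library left out. For PIO+GM against GM at 24 h it was 1 with the replicate block, with or without the GC trend, and for PIO+GM against PIO at 6 h 1 with DESeq2. For 24 against 6 h in GM it was 3 with the replicate block, 2 with the 6 libraries of the comparison or the block and GC correction, 1 with the likelihood ratio test or DESeq2, and 0 to 1 with 1 library left out. For 24 against 6 h in PIO it was 1 to 5 with 1 library left out, and the median log2 fold change was -1.01 when genes needed at least 10 counts in every library, which leaves fewer of the 10 genes. With the block, 24 against 6 h in PIO had 6 called and in PIO+GM 9. Libraries with the same replicate number did not all deviate together (at 6 h 9 of 18 pairs correlated over 0.1, at 24 h 15 of 18, and 8 of 12 libraries at each time correlated best with their own number), so the numbers were not taken as pairs, and the block moved no other count of calls. Depth limits mainly Oas3, with 2 to 30 counts per library.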
